A study of Mus musculus and Homo sapiens with 10 samples.

Results

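CTCF peaks on human chromosome 22 are described here: all intervals of at most 20 kb on that chromosome in the authors' list of CTCF peaks from HEK293T cells, 491 of 10912 intervals in the list and 491 of the 10607 that meet the width limit. The study maps chromatin proteins with Nanopore-DamID, in which a protein is fused to the bacterial adenine methyltransferase Dam, the fusion marks GATC sites near where the protein binds, and the marked DNA is cut with DpnI and read on Nanopore instruments. The human samples were 2 of HEK293T cells with CTCF fused to the mutant DamN126A and 1 with DamN126A alone, all 3 listed with 2 µg/mL doxycycline to induce the Dam protein and 2.5 µg of genomic DNA. HEK293T is an established line derived from human embryonic kidney, and the remaining 7 of 10 samples were mouse N2A cells, not used here. The list holds a chromosome, a start and an end for each peak, with no height and no column per sample. Depth, the copy number of each chromosome, agreement between the CTCF-DamN126A samples and the signal of DamN126A alone therefore cannot be given.

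CTCF is a zinc-finger protein that binds a long DNA motif and, with the ring-shaped cohesin complex, anchors chromatin loops and the borders of topologically associating domains. Cohesin is thought to extrude a loop until it meets CTCF bound in a fixed orientation, so the spacing of CTCF sites helps set the size of loops. Chromosome 22 is small, acrocentric and rich in genes, with its short arm and centromere at the low end of the coordinates. Its long arm carries the immunoglobulin lambda locus and the segment lost in DiGeorge syndrome. Peak positions below are given as coordinates only, because no human gene annotation was used, and no gene is assigned to a window.

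Chromosome 22 had the densest CTCF peaks of the 23 chromosomes in the list, 12.3 peaks per Mb of the 39.8 Mb between its first and last peak (10931065 to 50777688, hg38). The rank depends on that span: counted from the first base of each chromosome to its last peak, which adds 10.9 Mb without peaks at the low end, chromosome 22 had 9.67 per Mb and came second to chromosome 19 with 10.8. No human genome sequence was used, so how much of that low end can hold a peak was not determined here. Long stretches before the first peak were also found on chromosomes 13, 14, 15 and 21, of 21.2, 19.3, 33.2 and 8.22 Mb. On the remaining chromosomes the longest was 6.83 Mb, on chromosome 8. Within the spans, the other 22 chromosomes averaged 3.8 ± 2.23 peaks per Mb (SD over chromosomes) and ranged from 1.12 to 10.9. The difference was 8.52 peaks per Mb, and the density on chromosome 22 was above 22 of 22 others. An exact permutation test of 1 chromosome against the rest gave p = 0.0435, the smallest that 23 chromosomes allow, and 0.261 after Benjamini-Hochberg adjustment over 6 measures, so the difference did not pass after adjustment, and no measure could unless all 6 reached that smallest value. Chromosomes of 1 list are not biological replicates, and the test only restates the rank of chromosome 22 by its difference from the others. The part of the list and its measures were also chosen with earlier results of these data known. The peaks made up 4.63% of the list within the width limit (95% Wilson interval 4.25 to 5.05%, counting error only) on 1.38% of the summed span, and they covered 7.4% of the span of chromosome 22, against 1.9% ± 1.08 on the other chromosomes.

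The nearest chromosome in density was 19, with 635 peaks at 10.9 per Mb, then 17 with 565 at 6.89 per Mb and 11 with 885 at 6.58 per Mb. Chromosome 21 set a contrast at nearly the same size: chromosome 22 had 491 peaks on 39.8 Mb, against 42 peaks on 37.6 Mb of chromosome 21, or 1.12 per Mb. Both are acrocentric and short, and they stood at opposite ends of the order. Across all 23 chromosomes density and span had a Spearman rho of -0.25, a description of points that share 1 list.

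**Figure D1:**
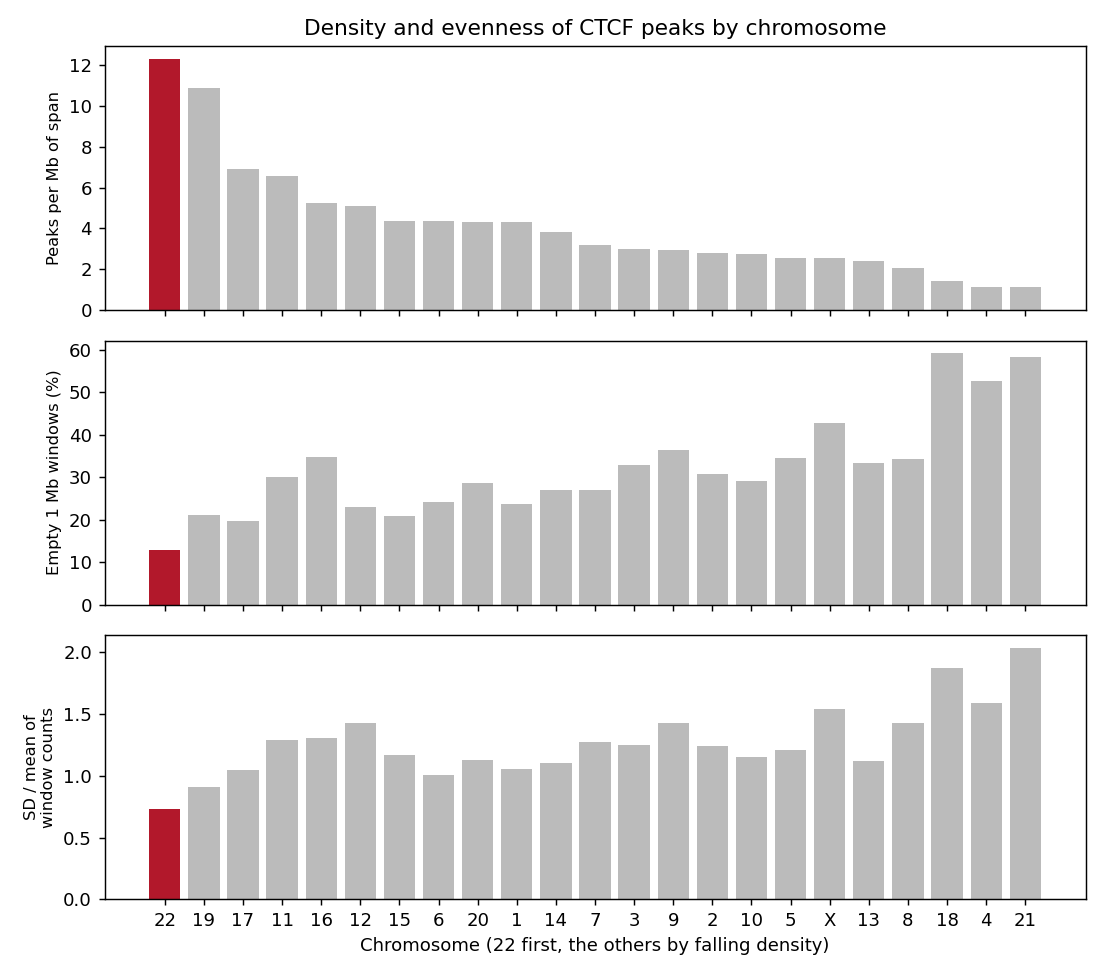
Bars give, for each chromosome, CTCF peaks per Mb of span (top), the percentage of whole 1 Mb windows without a peak (middle) and the SD over the mean of window counts (bottom), with chromosome 22 in red at the left and the others by falling density. Inside the span from first to last peak, chromosome 22 has the highest density, 12.3 per Mb, the lowest share of empty windows, 12.8%, and the lowest SD over mean, 0.733; counted from the first base of each chromosome, it is first in none of the 3.

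Between first and last peak, empty windows were rarer on chromosome 22 than on any other chromosome, though the difference missed the threshold. Of its 39 whole 1 Mb windows, placed on multiples of 1 Mb, 5 held no peak midpoint (12.8%), against 32.9% ± 11.3 of windows on the other chromosomes (SD, 22 chromosomes), where the lowest value was 19.8% on chromosome 17 (exact permutation test, p = 0.174, adjusted p = 0.313). With windows counted from the first base of each chromosome, 15 of 50 were empty on chromosome 22, 30.0%, and 8 other chromosomes had lower shares, among them chromosome 17 with 19.5% and chromosome 19 with 20.7%. The median window inside the span held 10 peaks on chromosome 22 and 2 in the 2816 whole windows of the other chromosomes. Windows of 10 peaks or more made up 51.3% on chromosome 22, against 49.1% on chromosome 19, 29.6% on chromosome 17 and 2.78% on chromosome 21. Windows of 20 or more made up 20.5% on chromosome 22 and 22.8% on chromosome 19.

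The variance of window counts over their mean was 6.51 on chromosome 22, against 5.61 ± 2.26 on the others (exact permutation test, p = 0.696, adjusted p = 0.696), and 5 other chromosomes had higher values. That ratio went up with density across the chromosomes (Spearman rho 0.77, n = 23, a description). The SD over the mean, chosen after the values were seen, put chromosome 22 in the opposite direction: 0.733 on chromosome 22, against 1.3 ± 0.275 on the others, the lowest of all 23. It went down with density (Spearman rho -0.65, n = 23, a description), so neither ratio is free of density. From the first base it was 0.982 on chromosome 22 and 0.901 on chromosome 19. On chromosome 22 it took the 11 fullest windows (28.2%) to reach 50% of the peaks that lie in whole windows. For the other chromosomes together it took 12.9% of 2816 windows. That share pools 22 chromosomes of unlike density, so it also reflects differences between chromosomes and is not a like measure of evenness within 1.

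Along the chromosome the windows formed broad zones, whose limits were drawn after the counts were seen and are a description. The low end, from the first peak to 16 Mb, held 4 peaks in 5.07 Mb. The stretch from 16 to 19 Mb held 23 peaks, 7.67 per Mb. A first crowded zone from 19 to 32 Mb held 227 peaks, 46.2% of all, at 17.5 per Mb, and its windows ranged from 6 to 28. A thinner zone from 32 to 36 Mb had 21 peaks at 5.25 per Mb. A second crowded zone from 36 to 43 Mb had 152 peaks at 21.7 per Mb, and none of its 7 windows fell below 16 peaks. Density was 10.3 per Mb from 43 to 47 Mb and 1.67 per Mb from 47 to 50 Mb. The last 0.778 Mb, from 50 Mb to the end of the last peak, held 18 peaks, or 23.1 per Mb. The 2 crowded zones together held 379 of the 491 peaks on 20 Mb, and counts of neighbouring whole windows went together (Pearson r 0.72 over 38 pairs that share a border, a description).

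The fullest window, 37000001 to 38000000, held 34 peaks that covered 20.8% of it, with a median gap of 10.9 kb. It shared rank 7 among all 2855 whole windows of the list with windows of chromosomes 16 and 19; the fullest of all, 65000001 to 66000000 on chromosome 11, held 48. The next on chromosome 22 was 29000001 to 30000000, with 28 peaks, a covered share of 16.2% and a median gap of 13.8 kb. Then came 38000001 to 39000000 with 24 peaks, followed by 19000001 to 20000000 and 20000001 to 21000000 with 23 each. Windows with like counts differed in the width and spacing of their peaks. The window from 40000001 to 41000000 held 20 peaks with a median width of 2611 bp and a median gap of 4.74 kb, while the window from 22000001 to 23000000 held 18 peaks with a median width of 6274 bp and a median gap of 22.6 kb. Chromosome 22 supplied 1.37% of all whole windows and 8 of the 59 windows with 20 peaks or more.

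**Figure D2:**
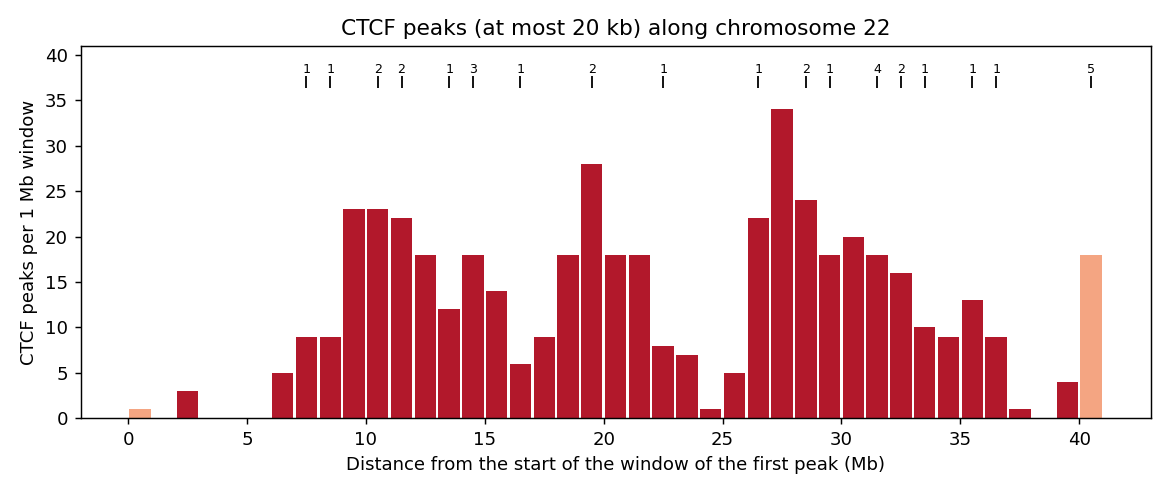
Bars give the number of chromosome 22 CTCF peaks per 1 Mb window, by distance in Mb from the start of the window that holds the first peak; pale bars are the part windows at both ends, and ticks with a number above mark windows that hold intervals wider than 20 kb and how many. A crowded zone of up to 28 peaks and another of up to 34 are parted by 4 windows with 8, 7, 1 and 5 peaks, and 5 whole windows are empty.

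Of the 5 empty windows, 4 lay at the low end, 11000001 to 12000000 and the run from 13000001 to 16000000. The other was 48000001 to 49000000, near the high end. Another 2 whole windows held 1 peak each, 34000001 to 35000000 between the crowded zones and 47000001 to 48000000 beside the empty window near the high end. The longest gap between peaks, 4.07 Mb from 12707759 to 16774319, was short for the list in Mb. Longest gaps averaged 8.8 ± 4.32 Mb on the other chromosomes, and only chromosome 15, at 3.82 Mb, had a shorter one. These lengths were not scaled to span, so they do not show that the gap is short for the chromosome. The span of chromosome 22 was 39.8 Mb, against 129 ± 58.2 Mb on the others, and only chromosome 21 had a shorter span. The second gap ran 2.3 Mb from 47625681 to 49929528, and the third 1.1 Mb from 10942337 to 12044346. The fourth, 1.04 Mb from 34108728 to 35148013, parted the crowded zones. Gaps over 500 kb numbered 10 and took up 30.9% of the span of chromosome 22, against 69% ± 12.5 on the others, with chromosome 19 the nearest at 42.9%. None of these 10 gaps held an interval wider than the limit. Without a human genome sequence, centromeres and unassembled stretches were not set apart in the gaps or the empty windows.

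The median gap from the end of a peak to the start of the next was 21.5 kb on chromosome 22, with quartiles of 5.64 and 67.3 kb. Median gaps averaged 90.3 ± 56.5 kb on the other chromosomes (exact permutation test, p = 0.261, adjusted p = 0.313); chromosome 19 alone had a shorter one, 20.4 kb, and chromosome 21 had 164 kb. As a share of the mean gap, a measure chosen after the values were seen, the median was 0.286 on chromosome 22, against 0.256 ± 0.0523 on the others. Gaps of 1 to 50 kb made up 60.0% on chromosome 22, the highest of the 23 chromosomes, against 33.8% ± 8.41 on the others and 51.7% on chromosome 19. Gaps under 1 kb made up 9.39% on chromosome 22, against 9.19% ± 3.64 on the others, 15.6% on chromosome 19 and 16.4% on chromosome 11. These classes were set after the gaps were seen and carry no test. Chromosome 11 differed from the rest in that 40 of its neighbouring peaks abut with no base between them, which occurred on no other chromosome.

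**Figure D3:**
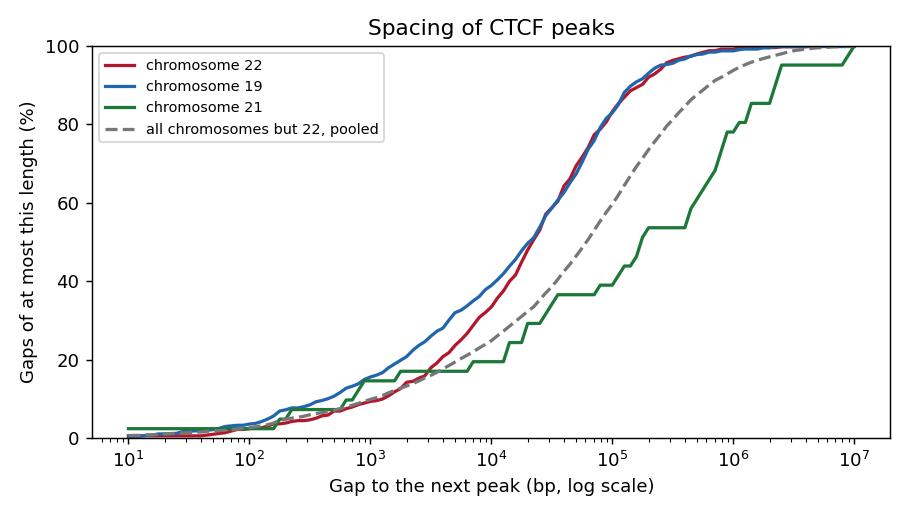
Lines give the percentage of gaps between neighbouring CTCF peaks that are at most the length on the x axis (bp, log scale) for chromosome 22, chromosome 19, chromosome 21 and all chromosomes but 22 together. Chromosome 22 runs with the pooled line up to about 1 kb, where 9.39% of its gaps lie, and joins the line of chromosome 19 at longer gaps.

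At 10 kb or less, 164 of 490 gaps were close, 33.5% (95% Wilson interval 29.4 to 37.8%, counting error only). The other chromosomes averaged 22.7% ± 7 (exact permutation test, p = 0.217, adjusted p = 0.313), and chromosomes 19 and 11 were above chromosome 22 with 39.0% and 36.1%. Of the 319 close gaps on chromosome 11, 40 were joins between abutting peaks. With peaks under 1 kb apart merged, the share was 26.6% on chromosome 22 and only 1 other chromosome was above it. The closest pairs lay only 7, 8 and 9 bp apart: 42368087 to 42369887 beside 42369895 to 42376729, 32074761 to 32078733 beside 32078742 to 32081025, and 32794038 to 32801525 beside 32801535 to 32807034. Such pairs are listed as separate peaks, and 46 pairs lay under 1 kb apart. Merging them would leave 445 peaks.

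Runs were built by linking peaks whose gaps were at most 10 kb. Of the 491 peaks, 226 had no other peak within 10 kb and 265 (54.0%) belonged to 101 runs of 2 or more. The share in runs was higher on chromosomes 19 (62.2%) and 11 (56.7%, abutting peaks linked too), and it was 51.7% on chromosome 17. With intervals wider than 20 kb counted as neighbours too, 214 peaks had none within 10 kb. Pairs were the most common, with 66 runs, followed by 19 runs of 3 and 11 runs of 4. Only 5 runs had 5 peaks or more. The longest had 8 peaks in 80.9 kb (20943306 to 21024199), of which peaks covered 56.3%. Its widths ran from 2219 to 12197 bp, and its gaps were 48, 5160, 7052, 6050, 5807, 9317 and 1893 bp. A run of 7 lay at 21540593 to 21610098. The runs of 6 lay at 37446900 to 37497925, in the fullest window, and at 39488724 to 39543775, where peaks covered 76.1% of the run. A run of 5 lay at 19267609 to 19300169. The longest run in the list had 9 peaks, on chromosome 16, so chromosome 22 was not apart in run length. A count over fixed lengths found the most peaks elsewhere: 10 peaks lay whole within 100 kb at 40594591 to 40694590, against 15 in the fullest such stretch of chromosome 11.

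**Figure D4:**
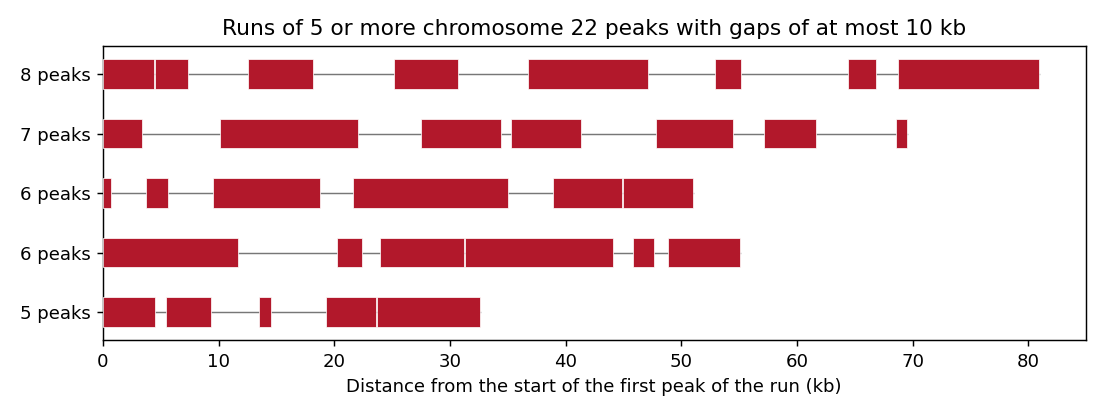
Each row is a run of 5 or more chromosome 22 CTCF peaks with gaps of at most 10 kb, drawn to scale by distance in kb from the start of its first peak, with red blocks for peaks and a grey line for the run. The run of 8 peaks extends over 80.9 kb, and the 6-peak run of 55.1 kb has 76.1% of its length in peaks.

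Widths of the chromosome 22 peaks ran from 577 to 19803 bp with a median of 4600 bp and quartiles of 2583 and 8828 bp. Median widths averaged 3881 ± 520 bp on the other chromosomes (exact permutation test, p = 0.217, adjusted p = 0.313), and chromosomes 3 and 12 had higher medians, 4704 and 4695 bp. That rank depends on the 20 kb limit. With wider intervals kept, the median was 5123 bp on chromosome 22, above every other chromosome. The others then averaged 3988 ± 565 bp (exact permutation test, p = 0.13, adjusted p = 0.313). The mean width, 6007 bp, was the highest of the 23 chromosomes, where the others averaged 5044 ± 527 bp. Peaks of 10 kb or more made up 18.9% on chromosome 22, again the highest, against 11.1% on the others together. The narrowest peak lay at 38475034 to 38475610 and the widest at 36350981 to 36370783.

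Widths also differed along the chromosome, as a description without a test. By 5 Mb segments the median width was 5704 bp from 15 to 20 Mb, 5581 bp from 20 to 25 Mb and 3489 bp from 40 to 45 Mb. The 18 peaks beyond 50 Mb had a median of 7426 bp. Peaks with another within 10 kb were narrower than those without, with medians of 3984 bp (265 peaks) and 5775 bp (226 peaks). That difference, -1791 bp, was the most negative of all 23 chromosomes; the others averaged -265 ± 515 bp, 15 of them negative and 7 positive. An exact permutation test over the 23 chromosomes, run after the values were seen and left out of the adjustment over 6 measures, gave p = 0.0435, the smallest it can give. Since the difference was picked out for its size on these same data, that p is not evidence that chromosome 22 stands apart. Counting wide intervals as neighbours too, the medians were 3973 and 5831 bp. Widths of neighbouring peaks on chromosome 22 had a Pearson r of 0.07 over 490 pairs on the log2 scale, given as a description.

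**Figure D5:**
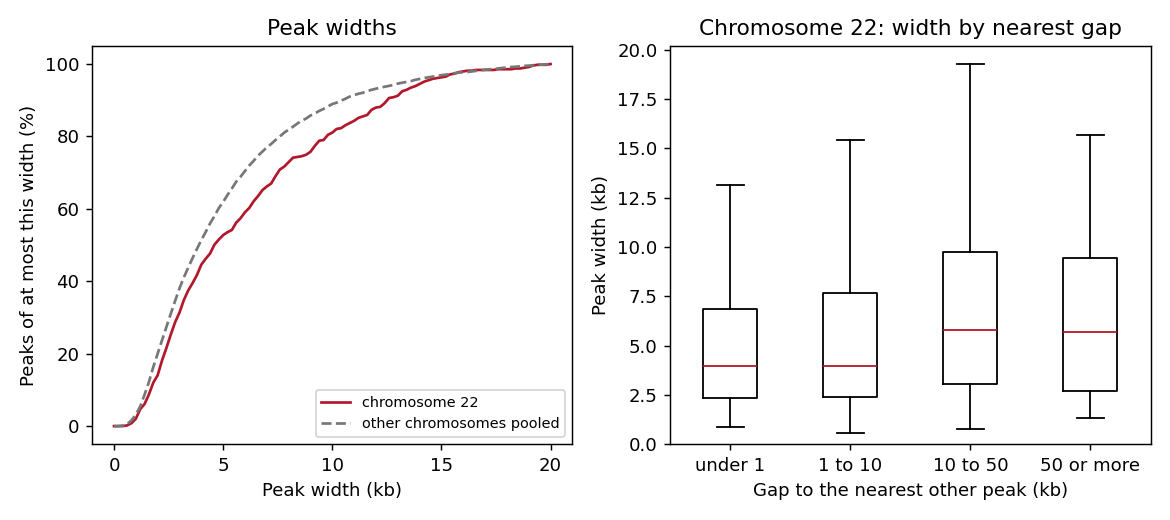
Left, the percentage of CTCF peaks of at most the width on the x axis (kb), for chromosome 22 and for the other chromosomes together; right, boxes of peak width (kb) on chromosome 22 by the gap to the nearest other peak (line, median; box, quartiles; whiskers, to 1.5 times the box height, with points beyond not drawn). Chromosome 22 has 18.9% of its peaks at 10 kb or more, and its medians are 3973 and 3992 bp for peaks under 1 kb and 1 to 10 kb from another, below 5775 and 5671 bp for those farther away.

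The width limit cut through a continuous range. The 4 widest peaks measured 19031 to 19803 bp, and the 6 intervals just above the limit 20087 to 21780 bp. In all, 32 of 523 chromosome 22 intervals, 6.12%, were wider than 20 kb and reached 60.4 kb. That was the highest share of the 23 chromosomes, against 2.63% of intervals on the other chromosomes together, and chromosome 19 followed with 5.08%. Of the 32, 15 had a peak within 10 kb. By zone, 11 lay in the 13 Mb from 19 to 32 Mb, 10 in the 7 Mb from 36 to 43 Mb and 5 beyond 50 Mb. They lay in 29 of the 490 gaps, so those gaps hold listed signal.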

How the data were processed

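The authors deposited the CTCF peaks as coordinates only: each row has an interval start and end and nothing that ranks 1 peak above another. Per the submitters' processing notes, minimap2, SAMtools, deepTools and bedtools were used, with the builds mm10 and hg38 and no roles or versions. No source used here names the peak caller, its cut-offs or the samples behind the list, so it is unknown whether peaks were called per sample or on pooled samples. The list was taken as hg38: its last chromosome 17 peak ends at 82.6 Mb, beyond the end of that chromosome in hg19. DpnI cuts only at GATC, so an interval can be no finer than the spacing of these sites.

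Intervals over 20 kb were left out. Density is peaks over the span from first to last peak. An alternative counts from the first base. Windows of 1 Mb were kept where they lay whole inside that span, and peaks were placed by midpoint. Each of 6 measures on chromosome 22 was compared with chromosomes 1 to 21 and X in a 2-sided exact permutation test over chromosomes on the absolute difference from the mean of the others, with Benjamini-Hochberg adjustment and a threshold of 0.05. Planned tests of promoters and motifs, and density by full chromosome length, were not run, and no gene was named by the rule fixed for it, since no human genome or annotation was used. Alternatives changed the width limit, merging, chromosomes, windows and gap limits. The density test was tried on simulated chromosomes of equal length, with peaks placed at random and a chromosome planted at a higher density. The other measures were not simulated. The part of the list and its measures were chosen with earlier results of these data known. The tools were scipy 1.17.1, matplotlib 3.10.9, pandas 2.3.3 and numpy 2.4.6 under Python 3.11.15.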

Additional observations from a re-analysis of the deposited data

How the results depend on the processing

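Of 33 alternative values over the 6 measures, 31 kept the direction of chromosome 22 against the average of the others and 2 turned. The cause was not tested. Some of the 31 could hardly turn: dropping chromosome X or 11 left the chromosome 22 value as it was, and merging left the empty windows unchanged. Empty windows from the first base counted as kept at 30.0% against 35.7% ± 12.1, although 8 other chromosomes had lower shares. No call could be gained or lost in practice, since the smallest p does not pass after adjustment unless all 6 measures reach it. Counted from the first base of each chromosome, density fell to 9.67 per Mb on chromosome 22, below 10.8 on chromosome 19 (exact permutation test, p = 0.087, adjusted p = 0.313), empty windows made up 30.0% and the variance over the mean was 9.13. In the other settings density on chromosome 22 was above all other chromosomes used, from 11.2 per Mb with peaks under 1 kb apart merged to 14.7 per Mb without gaps over 2 Mb. The variance over the mean of window counts, higher than the average of the others at 6.51, turned when replaced by the SD over the mean, 0.733. The median gap, shorter than average in kb, turned to longer than average when divided by the mean gap, 0.286. Both replacements were chosen after the data were seen, as were counting from the first base, density over windows that hold a peak, 13.6 per Mb, and the median width set against the others without chromosome 11. With peaks merged, median width was 5533 bp on chromosome 22 and above 22 of 22 others (exact permutation test, p = 0.0435, adjusted p = 0.13). No paired analysis was possible because the list has no values per sample, and for the same reason no sample could be left out in turn. Depth is unknown.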
